A study of Mus musculus with 28 samples.

Results

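Complement is a cascade of proteins that marks particles, dying cells and debris for removal. In the classical pathway C1q, built from the products of C1qa, C1qb and C1qc, binds its target and activates the proteases C1r and C1s, which cleave C4 and C2, and the resulting convertase cleaves C3. In solid tissues C1q is made largely by macrophages, whereas C1r, C1s, C3, C4 and the C1 inhibitor are made by fibroblasts and other stromal cells as well as by the liver. The C3a receptor C3ar1, a G protein-coupled receptor for the small C3 fragment, is carried mainly by myeloid cells.

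The set comprised 9 of the 25719 gene identifiers counted in mouse tail tendon fascicles, the load-bearing fibre units of the tendon. They are the C1q chains C1qa, C1qb and C1qc, the C1 proteases C1ra and C1s1, the components C3 and C4b, the receptor C3ar1 and the C1 inhibitor Serping1. They were chosen by name, with no measured value in the rule, but with earlier results of these data known. All 9 had enough counts to be tested in every comparison. Per library, the counts of a single member ran from 21 for C1s1 to 44879 for Serping1.

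The study compared Fosl-2(Tg) mice, here Tg, with non-transgenic controls, here WT, on the C57BL/6 background. The transgene is the murine Fosl2 gene, which encodes a subunit of the AP-1 transcription factor, placed at random in the genome under the H2Kb promoter, which is active in most cells, with an eGFP marker joined to it. The early cohort was 6 to 8 weeks old and held 7 WT and 8 Tg mice, all labelled male. The established cohort was older than 14 weeks, up to 24 weeks, and held 6 WT and 7 Tg mice, of which 1 in each genotype was male. Stage therefore cannot be told apart from sex between the cohorts.

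Each library was made from whole fascicle tissue, so the values mix all cell types, and fewer cells of a type cannot be told apart from less RNA per cell. Total counts ran from 9645598 to 66894396 per library, and levels are given as CPM, counts scaled to library size. Fosl2 itself, which counts transgene and endogenous reads together, was higher in Tg by 0.20 on the log2 scale in the early cohort (SE 0.24, edgeR adjusted p = 0.918) and by 0.38 in the established cohort (SE 0.15, edgeR adjusted p = 0.142), so the genotype labels were not separated by that count. Tendon fibroblast markers, among them Col1a1 and Tnmd, summed to between 103361 and 196683 CPM in WT established mice and to between 8428 and 83680 CPM in Tg established mice. Macrophage markers summed to between 783 and 1290 CPM in WT established and between 1096 and 2057 CPM in Tg established mice. Hepatocyte markers, of the main other source of complement, summed to at most 1.34 CPM in any library.

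Few of the 9 genes differed between the genotypes. In the early cohort 0 of 9 passed the test at an adjusted p of 0.05, where 0.0396% of all 15138 genes tested did. Among established mice C4b was higher in Tg by 3.19-fold and C3ar1 by 1.44-fold, 2 of 9 where 6.51% of 15862 genes passed in either direction and 3.14% were higher, while C1q, C1ra, C1s1, C3 and Serping1 did not pass. Across mice the C1q chains varied together and with C3ar1, and C1ra varied with the other stromal members. C3ar1 was also the 1 member whose genotype difference itself differed between the stages.

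**Figure D1:**
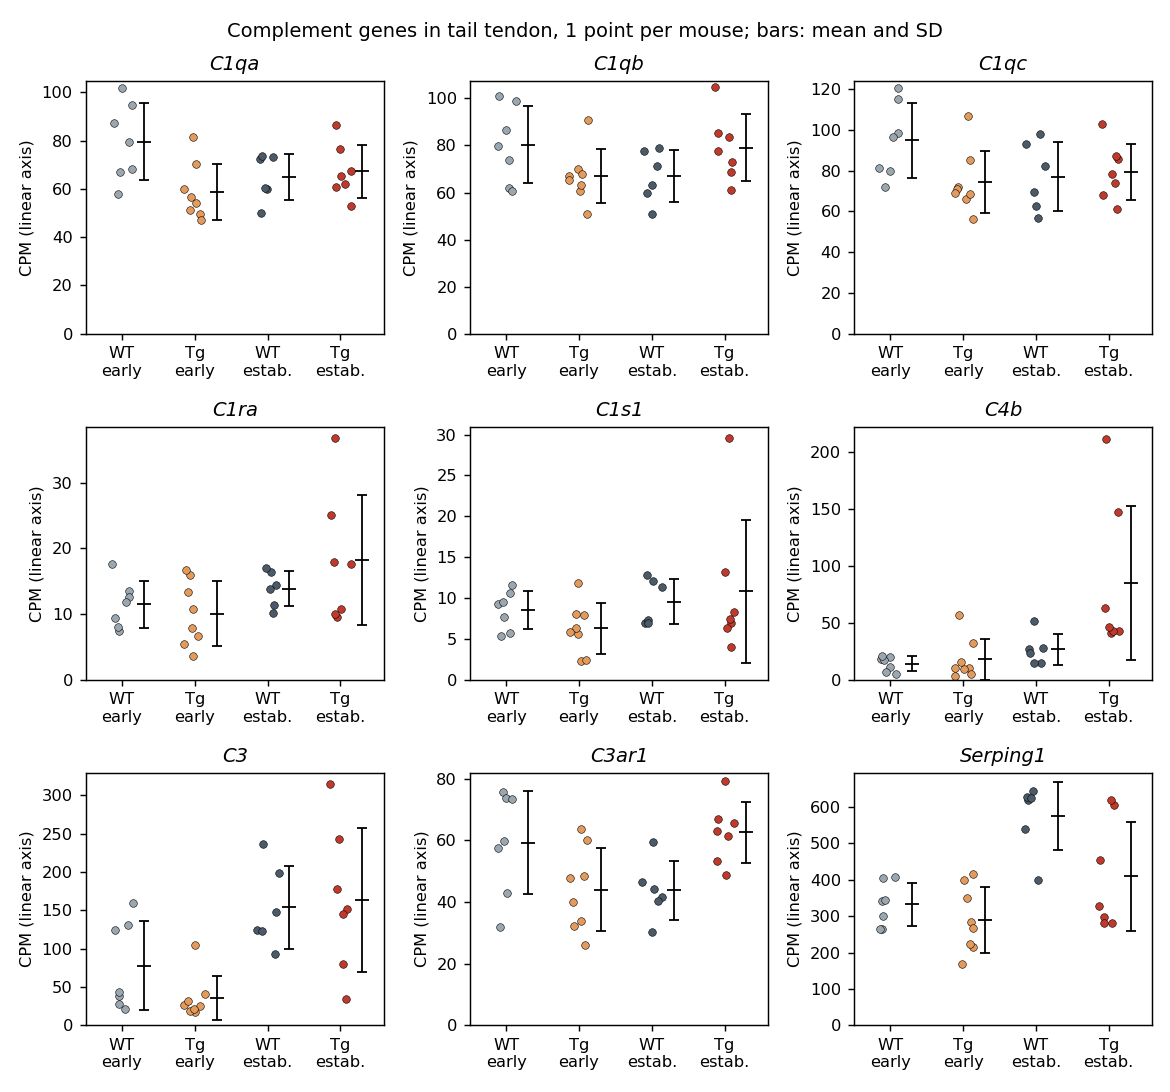
CPM of the 9 complement genes (linear vertical axes starting at 0) in WT and Tg mice of the early and established cohorts, 1 point per mouse, with the mean and SD beside each group. In Tg established mice C4b lies between 40.6 and 211 CPM and C3ar1 between 48.6 and 79.3 CPM, both partly above the WT range.

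Levels can be set between genes only per length of transcript. Per kilobase of the canonical transcript, Serping1 was the most abundant member in WT early tendon at 182 CPM, followed by C1qa at 73.2, C1qc at 51.2, C1qb at 31.8, C3 at 15.1, C3ar1 at 11.8, C1ra at 3.86, C1s1 at 2.93 and C4b at 2.59. In WT established tendon C3 stood at 29.9 CPM per kilobase, above C1qb at 26.4, and C4b at 4.90, just above C1ra at 4.65. These are group means, and the ranges over mice of C3 and C1qb overlapped broadly.

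The C1q genes lie side by side on the minus strand of chromosome 4 in the GRCm39 build. C1qb is at chr4:136606009-136613511, C1qc at chr4:136616466-136620376 and C1qa at chr4:136623223-136626161. Between the canonical transcripts of neighbours lie 2954 and 2851 bases. Promoters were read from the RefSeq table, which is on the GRCm38.p6 build, and placed on GRCm39 by exact match. It held a window for 6 of the 9 members and none for C1qa, C4b and Serping1, so these were not searched. The letters GAGGAA, a core that the myeloid factor PU.1 recognises, were searched on both strands from 250 bases before to 50 bases after each start and occurred in 28.3% of all 32851 windows. They were present in the C1qb, C1qc and C1ra windows, and the first 2 are shown here because these genes varied together, with the motif in capitals and the sequence written along the gene's strand.
C1qb, chr4:136613524-136613553, minus strand: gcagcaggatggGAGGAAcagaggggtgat
C1qc, chr4:136620401-136620430, minus strand, motif on the opposite strand: gacggcagacacTTCCTCattttggcacac

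C1qa encodes the A chain of C1q. In early WT mice its level was 57.9 at the lowest, 79.3 at the median and 102 CPM at the highest, and in early Tg mice 47.2, 55.2 and 81.6 CPM. The genotypes overlapped, although 5 of 8 Tg mice lay below the lowest WT mouse. The difference was -0.44 on the log2 scale (SE 0.14, edgeR unadjusted p = 0.00602, adjusted p = 0.624).

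C1qc, the C chain, ran from 72.0 over 96.2 to 121 CPM in early WT and from 56.5 over 70.1 to 107 CPM in early Tg mice (lowest, median, highest). Here too 5 of 8 Tg mice lay below every WT mouse, with a log2 difference of -0.35 (SE 0.14, edgeR adjusted p = 0.759). C1qb, the B chain, ran from 60.5 over 79.7 to 101 CPM in WT and from 50.8 over 66.1 to 90.9 CPM in Tg, and 1 of 8 Tg mice lay below the WT range (log2 difference -0.26, SE 0.13, edgeR adjusted p = 0.834). The 3 chains were thus below WT on average without any of them passing the test.

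Among established mice C1qa ran from 50.0 over 66.4 to 73.5 CPM in WT and from 52.8 over 65.5 to 86.2 CPM in Tg mice. C1qc ran from 56.5 over 76.0 to 97.8 CPM and from 61.2 over 78.1 to 103 CPM in the same order. C1qb ran from 50.7 over 67.2 to 78.8 CPM in WT and from 61.0 over 77.5 to 105 CPM in Tg mice. All 3 overlapped between the genotypes, with log2 differences of 0.06 (SE 0.12), 0.05 (SE 0.15) and 0.25 (SE 0.13), and edgeR adjusted p-values of 0.784, 0.843 and 0.242.

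The balance of the chains was narrow. C1qa made up between 25.99% and 32.9% of the summed C1q CPM in any mouse, C1qb between 28.9% and 38.0%, and C1qc between 32.9% and 39.3%. The chains have transcripts of unequal length, so these shares compare mice and not the number of transcripts of each chain.

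The C1q sum was set beside macrophage genes in each mouse. Csf1r encodes the receptor for the macrophage growth factor, and the C1q sum per unit of Csf1r had a median of 0.976 in WT early, 0.992 in Tg early, 0.929 in WT established and 0.938 in Tg established mice. The ranges of all 4 groups overlapped, from 0.806 to 1.21 over all mice. Cd163, the haemoglobin scavenger receptor of tissue-resident macrophages, gave another picture, with a C1q sum per unit of Cd163 of 4.72 at the lowest, 5.99 at the median and 6.64 at the highest in WT established mice and of 2.46, 2.67 and 4.47 in Tg established mice. No Tg established mouse reached the lowest WT established mouse in this ratio, which is given as a description. In the same mice Cd163 was higher in Tg by 1.07 on the log2 scale (SE 0.14, edgeR adjusted p = 0.00465), whereas the Csf1r difference of 0.19 (SE 0.12, edgeR adjusted p = 0.343) did not pass.

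**Figure D2:**
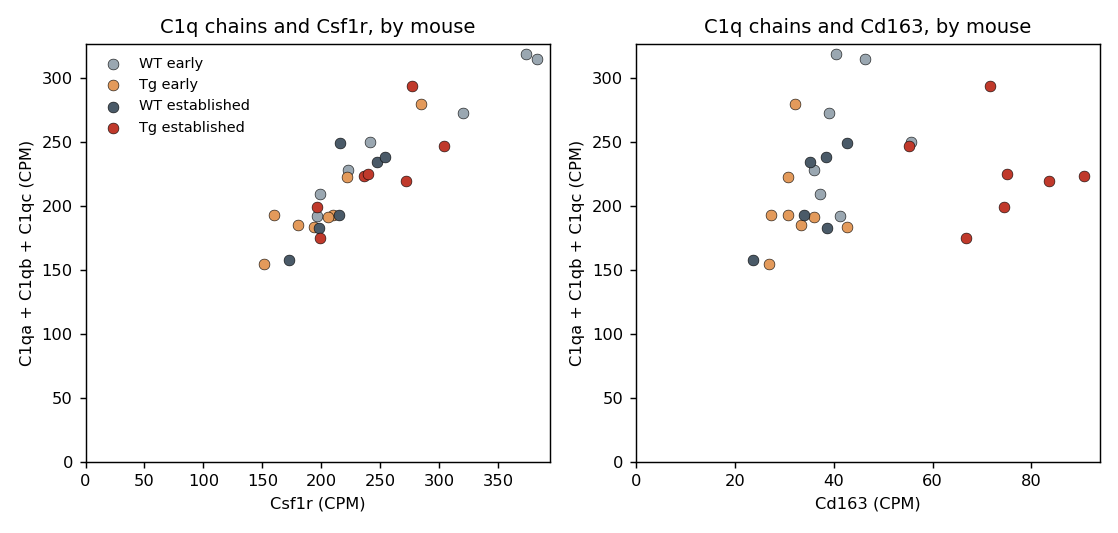
Sum of C1qa, C1qb and C1qc against Csf1r (left) and against Cd163 (right), all in CPM on linear axes, 1 point per mouse coloured by group. The points lie along 1 line for Csf1r, while for Cd163 the 7 Tg established mice are shifted to the right, with ratios of 2.46 to 4.47.

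The C3a receptor gene C3ar1 is at chr6:122823393-122833122 on the minus strand of GRCm39 and shared no stretch of its canonical transcript with another gene. Its promoter window was the 1 member window of 6 that held the AP-1 letters TGANTCA, which occur on either strand in 7.81% of all windows. C4b, the other member called among established mice, had no window and was not searched. It is shown because the transgene encodes an AP-1 subunit, and a match of letters is not a binding site.
C3ar1, chr6:122833121-122833149, minus strand, AP-1 letters in capitals: agtttaagaggTGACTCAtggaaaggccc

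C3ar1 ran from 30.3 over 43.0 to 59.6 CPM in WT established mice and from 48.6 over 63.0 to 79.3 CPM in Tg established mice. All 7 Tg mice were above the WT mean and 5 were above the highest WT mouse, and the genotypes overlapped through that 1 WT mouse. The difference of 0.52 on the log2 scale (SE 0.14, 1.44-fold) passed, with an edgeR adjusted p = 0.0456. C3ar1 and C4b were the 2 members called there.

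In the early cohort C3ar1 ran from 31.9 over 59.9 to 75.9 CPM in WT and from 26.1 over 43.9 to 63.8 CPM in Tg mice, so the genotypes overlapped and 3 of 7 WT mice were above every Tg mouse (log2 difference -0.43, SE 0.21, edgeR adjusted p = 0.828). The established difference exceeded the early difference by 0.95 on the log2 scale (SE 0.27, edgeR adjusted p = 0.0347). C3ar1 was the 1 member of 9 to pass that test, which 7.43% of 16082 genes passed in either direction and 3.43% in the direction of C3ar1.

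Both calls for C3ar1 lay close to the threshold. The established adjusted p rose above 0.05 when any 1 mouse was left out other than Tg replicates 3 and 4 and WT replicate 2, to at most 0.0885 with differences of 0.44 to 0.54, and it was 0.0974 among females, 0.0923 in a fit of all libraries and 0.0570 without a filter on low counts. The difference between stages lost its call without WT early replicates 1, 2 or 7 or WT established replicates 1 or 4 (adjusted p at most 0.0606, differences of 0.86 to 0.93), and without the 2 established males (0.93, adjusted p = 0.0619) or with muscle markers as a covariate (0.89, adjusted p = 0.0503).

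Some macrophage markers differed in the same mice. Among established mice 4 of 19 macrophage markers tested, of 20 listed, were higher in Tg and 1, Cx3cr1, was lower, where 3.14% and 3.37% of all genes were, with a list median of 0.34 on the log2 scale against 0.01 over all genes. In the early cohort 0 of 19 passed, 17 were below 0 and the median was -0.38 against -0.01 over all genes. Their part in the C3ar1 differences was not tested. C3ar1 per unit of C1q sum ran from 0.187 over 0.201 to 0.255 in WT established and from 0.239 over 0.278 to 0.330 in Tg established mice, a partial overlap, while both early groups lay between 0.135 and 0.294. Erythroid markers are a sign of blood in the tissue. They summed to between 8.94 and 20.1 CPM in WT established and between 10.3 and 127 CPM in Tg established mice. With muscle, erythroid and keratinocyte markers left out C3ar1 differed by 0.55 (edgeR adjusted p = 0.0377). That fit keeps all other RNA of those cells, so the part of blood in the C3ar1 difference was not tested.

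**Figure D3:**
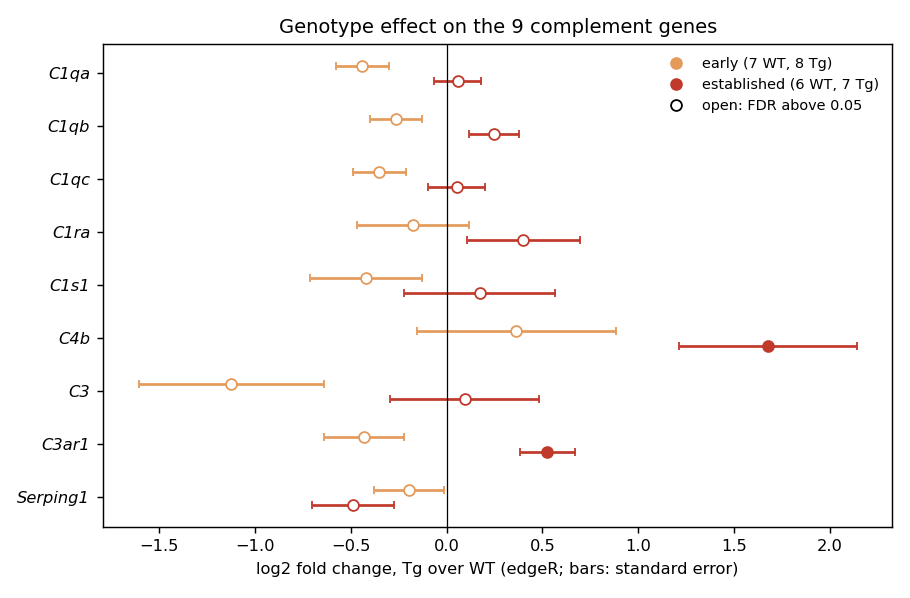
Log2 fold change of Tg over WT (horizontal axis) for each complement gene in the early and established cohorts, with edgeR standard errors as bars and filled points where the adjusted p is at most 0.05. Filled are 2 points, C4b at 1.67 and C3ar1 at 0.52, both in the established cohort.

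C4b encodes the mouse C4 protein that covalently tags surfaces after C1s cleavage. It is at chr17:34947354-34962912 on the minus strand, and 8.17% of the 150-base windows of its canonical transcript are also found in another gene, among them C4a, which was not analysed here. Reads of that part could be divided between the genes in the counting.

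C4b ran from 14.5 over 25.4 to 51.8 CPM in WT established mice and from 40.6 over 46.6 to 211 CPM in Tg established mice. All 7 Tg mice exceeded the WT mean and 5 of 6 WT mice were below every Tg mouse, with WT replicate 3 at the top of its group. Tg replicates 6 and 7, at 211 and 147 CPM, stood above the other 5 Tg mice, which lay between 40.6 and 62.6 CPM. The difference was 1.67 on the log2 scale (SE 0.46, 3.19-fold, edgeR adjusted p = 0.0469).

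This call also lay at the threshold. It was lost when any 1 mouse was left out other than Tg replicate 4 or WT replicate 3 (adjusted p at most 0.0945), and the difference ranged from 1.27 without Tg replicate 6 (adjusted p = 0.0645) over 1.48 without Tg replicate 7 (adjusted p = 0.0670) to 1.97 without WT replicate 3. Among females it was 1.75 with an adjusted p = 0.0882, and without a filter on low counts 1.66 with an adjusted p = 0.0563. Replicate 6 also had the highest Schwann cell marker sum of any mouse, 263 CPM against 37.3 to 60.1 CPM in the other Tg established mice, and the highest C1ra, C1s1, C3 and Serping1 of its group. Of 18 tendon fibroblast markers 4 were lower in Tg established mice, where 3.37% of all genes were, with a list median of -0.49 on the log2 scale against 0.01 over all genes, and their part in the C4b difference was not tested.

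In early mice C4b ran from 4.69 over 17.3 to 21.0 CPM in WT and from 3.42 over 10.5 to 56.3 CPM in Tg mice, with Tg replicates 6 and 4 above every WT mouse. The log2 difference of 0.36 (SE 0.52, edgeR adjusted p = 0.927) turned to -0.17 without Tg replicate 6. The established and early differences of C4b did not differ past the threshold (1.30, SE 0.73, edgeR adjusted p = 0.268).

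C3, the central component on which all pathways converge, is at chr17:57510964-57535155 on the minus strand. In the established cohort it ran from 93.2 over 136 to 237 CPM in WT and from 35.0 over 152 to 314 CPM in Tg mice, a wider range on both sides in Tg, and the difference of 0.09 on the log2 scale (SE 0.39, edgeR adjusted p = 0.897) did not pass. C3 per unit of C4b lay between 4.37 and 10.2 in WT established and between 0.559 and 3.82 in Tg established mice, without overlap, given as a description of the same C4b values.

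In the early cohort C3 had the largest difference of the 9 genes in size, -1.12 on the log2 scale (SE 0.48, edgeR unadjusted p = 0.0330, adjusted p = 0.787), which did not pass. It ran from 21.7 over 43.1 to 160 CPM in WT and from 17.8 over 26.3 to 104 CPM in Tg mice. WT replicates 1 to 3 and Tg replicate 1 held between 104 and 160 CPM and the other 11 mice between 17.8 and 43.1 CPM. These 4 libraries carry the 4 lowest library numbers in the labels, and C1qa, C1qb and C1qc were also higher in each of them than in any other early mouse, 81.6 to 102 against 47.2 to 79.3 CPM for C1qa. Of the 4, 3 were from WT mice, so library number and genotype cannot be fully told apart there. The library number as a covariate gave an early difference of -0.68 for C3 and -0.38 for C1qa. Muscle markers as a covariate gave -0.49 and -0.29 in the same order, and none of these passed. The part of library number or muscle in the early differences was not tested. Both covariates were added after the data were seen. Summed muscle markers spanned 405 to 26900 CPM in WT early and 2463 to 27184 CPM in Tg early mice.

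C1ra and C1s1, which encode the C1r and C1s proteases that C1q activates, lie tail to tail on chromosome 6, C1ra at chr6:124489364-124500402 on the plus strand and C1s1 at chr6:124507297-124559389 on the minus strand. They share sequence with a copy each. Of the 150-base windows of the canonical transcript, 26.3% for C1ra are also in C1rb and 13.6% for C1s1 in C1s2 or Gm16567, so their counts carry that uncertainty. The C1ra window held TTCNNNGAA, a core bound by STAT factors that occurs in 8.30% of all windows. It lay 32 bases downstream of the RefSeq start, inside the C1ra span given above. A GAGGAA core on the opposite strand followed without overlap, 44 bases from that start. The STAT letters are in capitals.
C1ra, chr6:124489602-124489629, plus strand: aaatgcttcaTTCCCTGAAacattcctc

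C1ra ran from 7.40 over 11.8 to 17.7 CPM in WT early and from 3.56 over 9.32 to 16.8 CPM in Tg early mice, and from 10.2 over 14.2 to 17.0 CPM in WT established and from 9.57 over 17.7 to 36.9 CPM in Tg established mice. The established Tg mice spread on both sides of the WT range, 4 above and 2 below it. The log2 differences were -0.18 (SE 0.29, edgeR adjusted p = 0.938) and 0.40 (SE 0.29, edgeR adjusted p = 0.394).

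C1s1 was the lowest member in CPM. It ran from 5.33 over 9.28 to 11.5 CPM in WT early, from 2.34 over 6.06 to 11.9 CPM in Tg early, from 6.97 over 9.30 to 12.8 CPM in WT established and from 4.01 over 7.38 to 29.6 CPM in Tg established mice. The value of 29.6 CPM was that of Tg replicate 6, and both cohorts overlapped between the genotypes (log2 differences -0.42, SE 0.29, edgeR adjusted p = 0.861, and 0.17, SE 0.39, edgeR adjusted p = 0.806).

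Serping1, the C1 inhibitor that inactivates C1r and C1s, is at chr2:84595705-84620873 on the minus strand. It ran from 265 over 343 to 406 CPM in WT early and from 167 over 276 to 415 CPM in Tg early mice, overlapping throughout (log2 difference -0.20, SE 0.18, edgeR adjusted p = 0.908). In the established cohort it ran from 401 over 622 to 645 CPM in WT and from 282 over 328 to 618 CPM in Tg mice, where 4 of 7 Tg mice lay below the lowest WT mouse and 4 of 6 WT mice above the highest Tg mouse. The log2 difference of -0.49 (SE 0.21, edgeR unadjusted p = 0.0383, adjusted p = 0.165) did not pass. It was -0.62 (adjusted p = 0.0461) with muscle markers as a covariate, an analysis added after the data were seen.

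In the early cohort 8 of the 9 members had a log2 difference below 0, where 52.7% of all genes tested did. At an unadjusted p under 0.05 there were 3 of 9, C1qa, C1qc and C3, all lower in Tg, against 6.06% of all genes in either direction and 4.1% lower. DESeq2 and limma also called 0 of the 9 at an adjusted p of 0.05. In the established cohort 8 of 9 were above 0, against 50.7% of all genes, and Serping1 was the exception, although C1qa, C1qc, C1s1 and C3 turned below 0 under at least 1 alternative each.

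The 9 genes were compared pairwise over the 28 mice after the group means were subtracted, with 36 pairs and a permutation test within groups. The closest pairs were those of C1q, with Pearson's r of 0.93 for C1qa and C1qc (Spearman's rho 0.90), 0.88 for C1qb and C1qc (rho 0.84) and 0.88 for C1qa and C1qb (rho 0.82). The permutation p of r was 1e-05 for each, the smallest that 100000 resamples can give (adjusted p = 0.00012), and rho had adjusted permutation p-values of 0.00018 for the first 2 and 0.00024 for the third. Without the 2 mice farthest from the median r was 0.91, 0.84 and 0.84, and within each cohort it was between 0.84 and 0.96. The C1q genes are neighbours in the genome, so shared position goes with these values.

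C3ar1 followed C1qa (r = 0.71, rho 0.71, permutation p = 0.00013 and 0.00016, adjusted p = 0.00078 and 0.000823) and C1qc (r = 0.70, rho 0.75, permutation p = 7e-05 and 5e-05, adjusted p = 0.000504 and 0.00036). C1ra followed Serping1 (r = 0.76, rho 0.75), C1s1 (r = 0.70, rho 0.59), C4b (r = 0.68, rho 0.68) and C3 (r = 0.66, rho 0.70), each with a permutation p of at most 0.00372 and an adjusted p of at most 0.0112 for r and rho. Without the 2 farthest mice C1ra kept r of 0.67 with Serping1, 0.55 with C1s1, 0.68 with C4b and 0.69 with C3. Of the 6 pairs among C1q and C3ar1 all 6 passed at an adjusted p of 0.05 for r, of the 10 pairs among C1ra, C1s1, C3, C4b and Serping1 there were 5, and of the 20 pairs between these sets there were 5.

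The pairs between the sets that passed were those of C3 with each C1q chain and of C1qb with C1ra and C4b, although by rho C3 with C1qa (adjusted permutation p = 0.0811) and with C1qc (adjusted permutation p = 0.126) did not pass. C3 with C1qb had r of 0.62 in all mice (rho 0.59, permutation p = 0.00183 and 0.00314, adjusted p = 0.00659 and 0.0103), 0.90 in the 15 early mice and 0.20 in the 13 established mice. C3 with C1qa had 0.52, 0.79 and 0.07 in the same order, so both relations were weak in the established cohort. In the early cohort C3 and the C1q chains were all highest in the 4 libraries named above. These relations were not tested without those libraries. C1qa with Serping1 had r of 0.00 (rho -0.02, adjusted permutation p = 0.993).

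**Figure D4:**
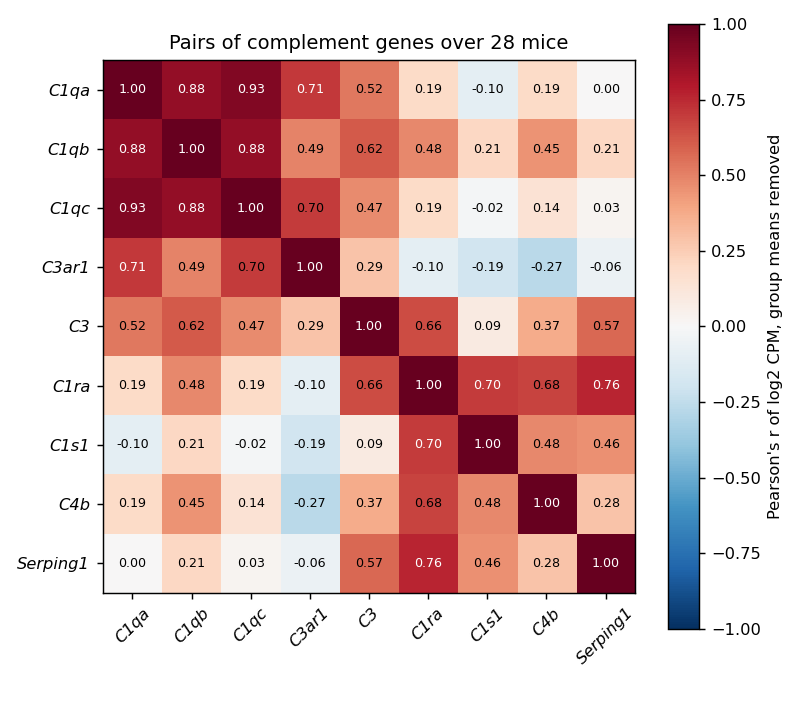
Pearson's r of log2 CPM for each pair of complement genes over 28 mice with group means removed, red for positive and blue for negative values. The block of C1qa, C1qb, C1qc and C3ar1 holds values of 0.49 to 0.93, and the values of C3ar1 with C1ra, C1s1, C4b and Serping1 are between -0.27 and -0.06.

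The genes most like each member over the 28 mice, by the same r among 11407 genes with a mean of at least 5 CPM, are given as a description. For C1qa they included Cybb (0.85), Csf1r (0.85), Vav1 (0.85) and Il10ra (0.84), where Cybb encodes a part of the phagocyte oxidase. For C1qb they were Lgmn (0.87), Itgb2 (0.86), Csf1r (0.83), Unc93b1 (0.81) and Csf2rb (0.80), and for C1qc they included Csf1r (0.87), Cybb (0.86), Cd37 (0.83) and Nckap1l (0.82). C3ar1 was nearest to Cd33 (0.90), Gpr34 (0.89), Ptpro (0.87), Zeb2 (0.87) and St8sia4 (0.84).

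Among the stromal members C3 was nearest to Fbln1 (0.89), Comp (0.89), Aplp2 (0.86), Chad (0.85) and Prelp (0.85), of which Comp, Chad and Prelp encode matrix proteins of tendon and cartilage. C1s1 was nearest to Smoc2 (0.87), Ccl6 (0.79), Vgll3 (0.78), Ace (0.78) and Podn (0.78), and C1ra to the complement gene C2 (0.82), Ly6e (0.81), Mmp3 (0.80), Kctd10 (0.79) and Bgn (0.78). C4b was nearest to Sh3pxd2b (0.83), the collagenase gene Mmp14 (0.82), Col23a1 (0.80), Glis3 (0.78) and Il4ra (0.77). Serping1 was nearest to Anpep (0.81), Sfrp4 (0.81), Myo1h (0.80), Kctd10 (0.80) and Rbms3 (0.80).

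Of 46 other complement genes listed by role, 45 were in the files. In the early cohort 0 of 25 tested passed. Of 30 tested in the established cohort 3 passed, 2 higher and 1 lower, where 6.51% of all genes passed, 3.14% higher and 3.37% lower. For the difference between stages 3 of 29 passed, all higher, where 7.43% of all genes passed and 3.43% were higher.

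In the alternative pathway, factor B (Cfb), the protease of the C3 convertase, was lower in Tg established mice. It ran from 316 over 397 to 503 CPM in WT and from 20.8 over 91.0 to 288 CPM in Tg mice, without overlap, which held for 2.33% of all genes in that direction, where 3.37% were called lower. The difference was -1.69 on the log2 scale (SE 0.43, 3.22-fold lower, edgeR adjusted p = 0.0367), and it remained below 0.05 when Tg replicate 4, 5, 6 or 7 was left out and not when any of the other 9 mice was (adjusted p at most 0.0731). Properdin (Cfp), which stabilises that convertase, was above WT in all 7 Tg mice without overlap, as in 1.48% of all genes (6.42 to 21.9 against 4.83 to 6.06 CPM), and its difference of 0.89 (SE 0.28, edgeR adjusted p = 0.0727) did not pass. Properdin is named after its values were seen.

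Among genes listed as membrane regulators Cd46 was higher in Tg established mice, 24.8 to 42.0 against 17.1 to 23.8 CPM without overlap, as in 1.48% of all genes (0.61 on the log2 scale, SE 0.15, edgeR adjusted p = 0.0313). In the lectin pathway the protease gene Masp2 was higher at 28.9 ± 4.74 (SD, n = 7) against 21.5 ± 2.68 CPM (n = 6), a difference of 0.43 (SE 0.11, edgeR adjusted p = 0.0401). Leaving out 1 mouse kept the call of Cd46 in 7 of 13 fits and that of Masp2 in 3 of 13, with adjusted p-values of at most 0.0691 and 0.0817. Both also passed for the difference between stages (Cd46 0.80, edgeR adjusted p = 0.0409; Masp2 0.61, edgeR adjusted p = 0.0402), calls kept in 14 and 17 of 28 fits with 1 mouse left out.

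The third gene to differ between stages was C5ar2, a receptor for C5a. It was 5.21 ± 2.52 (SD, n = 7) and 2.96 ± 1.11 CPM (n = 8) in WT and Tg early mice and 4.28 ± 1.35 (n = 6) and 6.50 ± 1.62 CPM (n = 7) in WT and Tg established mice, with a difference between stages of 1.41 on the log2 scale (SE 0.39, edgeR adjusted p = 0.0302). Neither cohort alone passed, and the call was lost without WT early replicate 1 or 2 or WT established replicate 6 (1.24 to 1.30, adjusted p at most 0.0575) and without the 2 established males (1.26, adjusted p = 0.0727).

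The most abundant gene of each remaining list did not pass in the established cohort. The log2 differences were -0.54 for C2, cleaved by C1s (edgeR adjusted p = 0.236), 0.18 for the collectin Colec12 (adjusted p = 0.343), -0.18 for the pore component C7 (adjusted p = 0.781), -0.47 for clusterin, Clu (adjusted p = 0.249), 0.03 for the decay-accelerating factor Cd55 (adjusted p = 0.921) and -0.12 for Cd93 (adjusted p = 0.830). Mbl1, Mbl2 and C8b, made mainly by the liver, and Fcnb were at 0 counts in every library, which allows up to 0.311 CPM (3 counts) in the shallowest one, for counting error only.

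**Figure D5:**
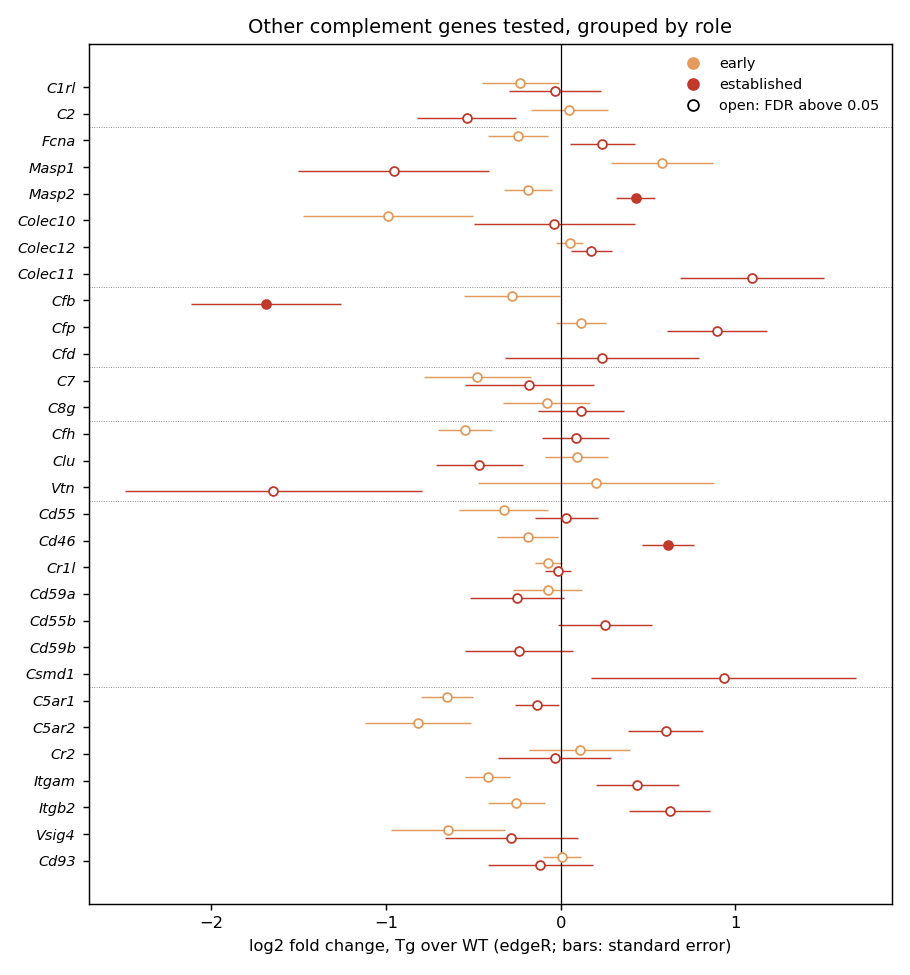
Log2 fold change of Tg over WT (horizontal axis) for the other complement genes tested, in the early and established cohorts, with edgeR standard errors as bars, filled points where the adjusted p is at most 0.05 and dotted lines between lists of 1 role. Filled are 3 points, Masp2 at 0.43, Cd46 at 0.61 and Cfb at -1.69, all in the established cohort.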

How the data were processed

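Raw read counts per gene were deposited for 28 libraries of rRNA-depleted RNA from tail tendon fascicles. The authors mapped paired reads to GRCm39 (GENCODE M26) with STAR and counted them with featureCounts. Strand and multi-mapping settings are not given in the sources used here, so antisense or paralogous reads could not be separated. Gene names came from GENCODE M39 (25505 of 25719 identifiers matched). Members and gene lists were chosen with earlier results of these data known. All members, other complement genes passing any test, the most abundant gene of each list and the 5 most similar genes per member were named, except 1 item that is not reported here.

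Genotypes were compared within each cohort, and as an interaction over all libraries, with edgeR 4.0.16 (R 4.3.3) quasi-likelihood tests after TMM scaling and filterByExpr (minimum count 10, total 15). Adjusted p-values are Benjamini-Hochberg over all genes tested, and a gene passed at 0.05 or below. CPM were scaled together by TMM, with a prior count of 2 on the log2 scale. Fits were tested on simulated data. DESeq2 1.42.0, limma 3.58.1, other filters and scalings, sex, replicate blocks and leaving out each library were alternatives. Labels do not say whether replicate numbers mark litters. Same-numbered early mice deviated together in all 7 pairs (r of 0.14 to 0.40), though 0 of 7 WT mice were closest to their own number, and the block left the early count at 0. Replicates are labelled as separate samples, and the paper describes each sequenced sample as a separate mouse. The p-values measure the spread between those samples.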

Additional observations from a re-analysis of the deposited data

Results flagged for a closer look

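In 36 groups of member values (9 genes in 4 groups), 2 held a value far from the rest on the log2 CPM scale, and chance alone gives about 1 in 20. Other values can stand apart in CPM. C3 in Tg early replicate 1 was 104 CPM while the other 7 Tg early mice lay between 17.8 and 40.7 CPM. Serping1 in WT established replicate 5, the male of that group, was 401 CPM while the other 5 lay between 541 and 645 CPM. The genotype difference of C3ar1 differed between the established and early cohorts by 0.95 on the log2 scale (edgeR adjusted p = 0.0347), and sex cannot be told apart from stage in that comparison.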

How the results depend on the processing

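The number of members passing stayed at 0 in the early cohort under every alternative run, including each library left out. In the established cohort it was 2 with DESeq2 (adjusted p = 0.0103 for C4b and 0.0120 for C3ar1), RLE scaling, a filter at a mean of 1 CPM, voom, contaminant markers left out, and sex or library number as a covariate, and 3 with the muscle covariate. It was 0 without a filter on low counts and 0 among females, fits with more genes and with fewer mice. It was 1 in a fit of all libraries, and the causes of these changes were not tested. Leaving out 1 mouse gave 0 to 2. The count for the difference between stages, 1, became 4 with voom (C1qa 0.67, C1qb 0.69 and C1qc 0.64 in addition), 0 without the 2 established males and 0 with the muscle covariate, and leaving out 1 mouse gave 0 to 3. The library number and muscle covariates were chosen after seeing the data.

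With the replicate number as a block the established count was 1, since C4b gave 1.23 (adjusted p = 0.125) while C3ar1 gave 0.47 (adjusted p = 0.0454), and the counts of the early cohort and of the difference between stages were 0 and 1 as before. Established mice shared only a number (r of -0.23 to 0.69 over 6 pairs, with 2 of 6 WT mice closest to their own number). Under this block C1qa was -0.00919, C1qc -0.00529, C1s1 -0.17, C3 -0.27 and Cd93 0.029 in the established cohort, and Cd93 was 0.00497 between stages.

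The other changes of sign were in differences that did not pass. With voom these were Cd93 at -0.049 and Clu at -0.050 in the early cohort, C1s1 at -0.13, C3 at -0.071, Cd93 at 0.43 and C7 at 0.013 in the established cohort, and Cd93 at 0.41 between stages. C3 was -0.069 with sex and -0.018 with the muscle covariate, which also gave C7 at 0.00399 and Cd93 at 0.12, and 0.079 for Cd93 between stages. Cd93 was 0.088 among females and 0.068 between stages without the 2 males. Leaving out 1 mouse gave in the early cohort -0.17 to 0.52 for C4b, -0.070 to 0.17 for C2 and -0.054 to 0.067 for Cd93. For established mice it gave -0.013 to 0.11 for C1qa, -0.023 to 0.13 for C1qc, -0.31 to 0.32 for C1s1, -0.14 to 0.27 for C3, -0.089 to 0.13 for Cd55 and -0.28 to 0.11 for Cd93. Between stages it gave -0.30 to 0.089 for Cd93 and -0.028 to 0.46 for C7. The lowest count of a member in any library was 21, for C1s1. Its early SE of 0.29 was still smaller than the 0.52 of C4b.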
